A study of Homo sapiens with 6 samples.

Results

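The genes described are *VPS25* and 9 other genes of the endosomal sorting complexes required for transport (ESCRT), 10 of the 23285 genes in the count table, each found there under its own symbol. They were measured by RNA sequencing in PC3 cells, a prostate cancer line derived from a bone metastasis. Of 6 libraries, 3 came from cells transfected for 72 h with a non-specific siRNA and 3 from cells transfected for 72 h with an siRNA against paxillin, the focal adhesion adaptor encoded by *PXN*. Both groups grew in the same serum-containing medium, and both were transfected, so no library shows untransfected cells. The question was which transcripts differ when paxillin is reduced. *VPS25* was chosen because its fall with paxillin siRNA was already known from these libraries, and the other 9 genes because they encode its complex partners and neighbouring complexes. The values of the 10 genes in this comparison are therefore given as a description. Where a count of them past a threshold is printed, it stands beside the share of all genes, and nothing is read from it. Nothing in the labels says that the replicates were separate cultures, so the p-values printed for other genes measure the spread between these libraries only, which may be technical.

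ESCRT proteins cut membrane necks from the inside. On endosomes they gather ubiquitinated receptors, bend the membrane inward and pinch off the vesicles of multivesicular bodies, which deliver their cargo to the lysosome. The same machinery acts in the last step of cell division, in the budding of several viruses and in membrane repair. ESCRT-0 and ESCRT-I bind ubiquitin and cargo. ESCRT-II links them to ESCRT-III, whose filaments constrict the neck, and the ATPase VPS4 takes these filaments apart. ESCRT-II is built from VPS36, SNF8 (also called VPS22 or EAP30) and a pair of VPS25 copies, and it is VPS25 that contacts CHMP6, the first ESCRT-III subunit.

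The 3 ESCRT-II genes are transcribed from separate promoters, and their sequences are shown because these subunits share a complex while *VPS25* and *VPS36* had the lowest and the highest log2 fold change of the 10 genes. Each line gives the 250 bases before the RefSeq gene start in GRCh38.p14, 5′ to 3′ on the strand of the gene. Capitals mark CCGGAA on either strand (CCGGAA or TTCCGG), the core of the sites bound by ETS-family transcription factors, a motif searched after the sequences had been seen.
VPS25 (chr17:42773199-42773448, + strand): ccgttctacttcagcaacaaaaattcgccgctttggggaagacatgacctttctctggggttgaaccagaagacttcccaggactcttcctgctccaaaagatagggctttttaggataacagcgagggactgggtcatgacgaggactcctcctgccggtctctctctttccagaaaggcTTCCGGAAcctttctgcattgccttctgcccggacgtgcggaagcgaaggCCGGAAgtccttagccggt
SNF8 (chr17:48944843-48945092, - strand): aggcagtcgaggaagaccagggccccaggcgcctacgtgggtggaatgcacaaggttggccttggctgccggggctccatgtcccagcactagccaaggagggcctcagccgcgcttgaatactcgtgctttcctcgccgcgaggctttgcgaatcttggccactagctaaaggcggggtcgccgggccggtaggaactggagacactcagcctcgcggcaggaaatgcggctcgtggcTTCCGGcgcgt
VPS36 (chr13:52450635-52450884, - strand): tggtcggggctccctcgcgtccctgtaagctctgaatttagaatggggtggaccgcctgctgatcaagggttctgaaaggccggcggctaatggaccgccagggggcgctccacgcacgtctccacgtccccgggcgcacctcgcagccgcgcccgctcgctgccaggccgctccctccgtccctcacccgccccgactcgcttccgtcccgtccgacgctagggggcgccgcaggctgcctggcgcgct
The *VPS25* window holds 3 matches, which begin 69, 67 and 19 bases before the start. The first and second of these overlap on opposite strands and form 1 stretch of capitals. The *SNF8* window holds 1 match, 11 bases before the start. The *VPS36* window holds none, and neither does that of the other *VPS36* start in the table. Among the other members searched, *TSG101* has 2 matches and *CHMP4B* has 1, while *HGS*, *VPS4A* and *VPS4B* have none, and *VPS28* and *CHMP6* were not used here. Of 35116 promoter windows of this length in the table, 14.5% hold at least 1 match and 0.63% hold 3 or more, with overlapping matches counted separately. The windows shown and the motif were both chosen after the data were seen, so nothing is read from these shares. A match of letters is a description and does not show that a factor binds there.

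Behind non-specific siRNA replicates 1, 2 and 3 lay 33627621, 30311439 and 22209762 single reads, and behind the paxillin siRNA replicates 31061064, 29644028 and 22747096. All 10 genes passed the filter on low counts, with at least 205 reads in every library, and none overlaps another gene in the table. *PXN* was at 835, 854 and 718 CPM (counts scaled to library size) with non-specific siRNA and at 59.2, 55.7 and 91.7 CPM with its own siRNA, so its transcript was lowest where the labels say it was targeted. Paxillin siRNA replicate 3 stood apart from its group: its log2 CPM correlated across genes at 0.973 and 0.971 with paxillin siRNA replicates 1 and 2, and at 0.978, 0.971 and 0.986 with the non-specific replicates. The labelled cell line was checked on markers by FPKM (fragments scaled to transcript length and library size). *KRT8*, *KRT18*, *VIM* and *CD44* were at 18.3 FPKM or more in every library, while *KLK3* did not exceed 0.0249 and *KLK2* 0.0046 FPKM. *TMPRSS2*, listed with them as lacking, was present at 3.94 to 7.99 FPKM. The 4 leukocyte markers summed to 5.81 to 8.49 FPKM with non-specific and 8.82 to 13.6 FPKM with paxillin siRNA, nearly all of it *CD68*, with *PTPRC* at 0.00767 FPKM or less. The part of these differences in the results was not tested.

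*VPS25* (chromosome 17, 40925454 to 40931617, hg19) was the member with the largest change. With non-specific siRNA its level was 28.6, 29.8 and 30.8 CPM in replicates 1, 2 and 3, from 956, 898 and 652 reads. With paxillin siRNA it was 8.53, 6.60 and 12.6 CPM, from 276, 205 and 276 reads. All 3 paxillin siRNA libraries lay far below all 3 non-specific ones, and the highest of them was replicate 3. In that library *PXN* also remained highest, but it stood apart from its group across genes, so this order is not particular to *VPS25*. Set against the control library that carries its replicate number, each paxillin siRNA library kept 29.8%, 22.2% and 40.8% of the *VPS25* transcript (30.9% ± 9.34, SD over 3 pairs), while 7.09%, 6.52% and 12.8% of *PXN* was left. The group means were 29.7 ± 1.10 and 9.23 ± 3.04 CPM (SD, n = 3), a 3.22-fold difference or -1.69 ± 0.23 on the log2 scale (SE; 95% interval -2.22 to -1.16). It ranked 11th by size among the 48 genes called lower and 40th by fall among all genes tested. Both ranks use the value for which the gene was chosen. In bulk RNA, fewer cells with the transcript and less of it per cell cannot be told apart.

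*VPS25* was the only 1 of the 10 members called lower over all genes tested, and none was called higher (edgeR, adjusted p under 0.05). Over all genes, 0.302% of the 15876 tested were called lower and 1.18% in either direction. With the replicate number as a block, 3 members were called lower, *VPS25*, *SNF8* and *HGS*, against 10.7% of all genes. The choice of the genes used this comparison, so neither count is a result about them. With 1 library left out, the log2 fold change of *VPS25* was -1.72, -1.69 and -1.65 without non-specific replicates 1, 2 and 3 and -1.63, -1.49 and -1.98 without paxillin siRNA replicates 1, 2 and 3, and edgeR then called the gene only where paxillin siRNA replicate 3 was the library left out. That fit called 1271 of 16139 genes lower.

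**Figure D1:**
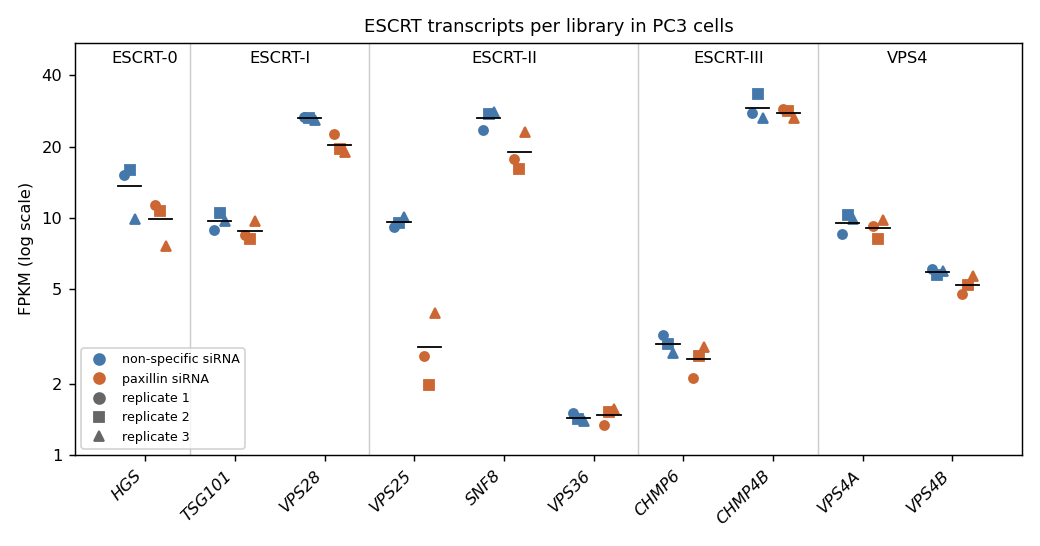
FPKM of the 10 ESCRT genes in each library on a log scale, grouped by complex, with symbols for replicate numbers and bars for group means (n = 3). *VPS25* drops from 9.18 to 10.1 FPKM with non-specific siRNA to 1.97 to 3.97 FPKM with paxillin siRNA, while the points of most other members overlap between groups.

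The other ESCRT-II transcripts had smaller differences than *VPS25*, the gene chosen for its fall. *SNF8*, a core subunit that holds the complex together with VPS36 (chromosome 17, 47007459 to 47022154), was at 84.8, 98.7 and 98.3 CPM with non-specific siRNA. With paxillin siRNA it was at 66.6, 61.7 and 83.6 CPM. The groups did not overlap, though paxillin siRNA replicate 3 came close to the lowest control. That library again stood highest of its group, as for *VPS25*. The log2 fold change of *SNF8* was -0.41 ± 0.15 (SE; 95% interval -0.76 to -0.07), and 78.6%, 62.5% and 85.1% of the transcript remained in the 3 pairs. Without paxillin siRNA replicate 3 the log2 fold change was -0.55. *VPS36*, whose GLUE domain binds ubiquitin and endosomal lipid (chromosome 13, 52986737 to 53024763), was at 19.6, 19.8 and 17.6 CPM with non-specific siRNA. With paxillin siRNA it was at 18.9, 20.5 and 21.1 CPM, and the groups overlapped. Its log2 fold change was 0.09 ± 0.13 (SE), and the 95% interval of -0.21 to 0.38 leaves room for modest changes in either direction.

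The balance of the 3 ESCRT-II transcripts per length therefore differed between the groups. The FPKM ratio of *VPS25* to *VPS36* was 6.10, 6.72 and 7.23 in non-specific replicates 1, 2 and 3, and 1.94, 1.30 and 2.55 in the paxillin siRNA replicates. The ratio of *VPS25* to *SNF8* was 0.388, 0.346 and 0.360, and 0.146, 0.123 and 0.173. Neither ratio overlapped between groups. The mean ratios to *VPS36* were 6.68 ± 0.566 and 1.93 ± 0.625 (SD, n = 3), 3.46-fold apart, and those to *SNF8* were 0.365 ± 0.0214 and 0.147 ± 0.0250, 2.48-fold apart. *SNF8* over *VPS36* was 15.7, 19.4 and 20.1, and 13.3, 10.6 and 14.7. This shift was smaller, with means 1.43-fold apart, but the groups did not overlap here either. *VPS25* made up 25.7% ± 0.961 of the summed ESCRT-II FPKM with non-specific siRNA and 12.0% ± 1.90 with paxillin siRNA. These ratios contain the *VPS25* values that chose the gene, and they compare transcripts, not subunits in the assembled complex.

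**Figure D2:**
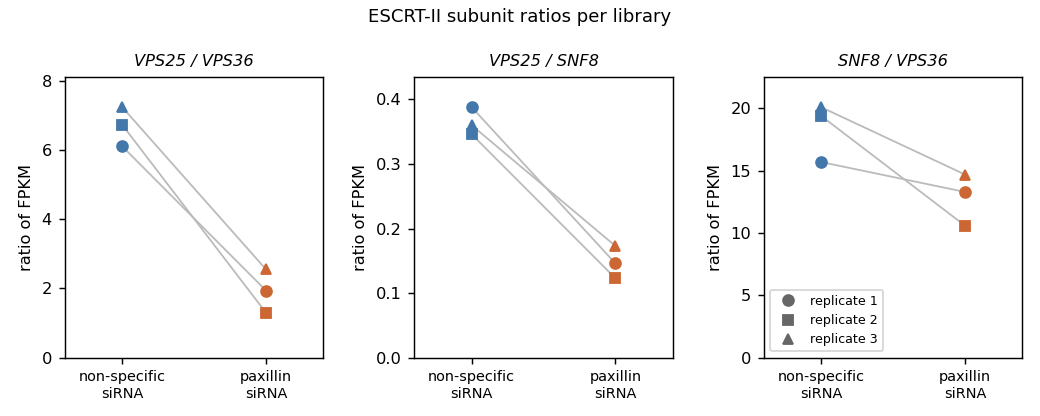
Ratios of FPKM between ESCRT-II transcripts in each library, with lines joining libraries of the same replicate number. The ratios with *VPS25* in the numerator fall in all 3 pairs, to 1.30 to 2.55 over *VPS36* and to 0.123 to 0.173 over *SNF8*, and *SNF8* over *VPS36* falls less.

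Upstream of ESCRT-II, *HGS* encodes HRS, the ESCRT-0 protein that recruits ubiquitinated receptors to endosomes through a FYVE domain. It was at 133.4, 131.1 and 84.7 CPM with non-specific siRNA. With paxillin siRNA it was at 102.8, 102.1 and 66.0 CPM. Replicate 3 was the lowest library of both groups, so the groups overlapped. Within pairs of the same number the difference was nearly constant, with paxillin siRNA libraries at 77.1%, 77.8% and 78.0% of their controls (77.6% ± 0.494, SD over 3 pairs). On the log2 scale the difference was -0.37 ± 0.23 (SE) without the replicate block and -0.37 ± 0.11 with it. With 1 library left out it ranged from -0.54 without non-specific replicate 3 to -0.19 without paxillin siRNA replicate 3.

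The ESCRT-I members had small differences. *TSG101*, the subunit that reads ubiquitin and binds the late domains of viral Gag proteins, was at 40.5, 49.0 and 43.1 CPM with non-specific siRNA and at 40.5, 38.9 and 45.1 CPM with paxillin siRNA. The groups overlapped, and the log2 fold change was -0.09 ± 0.13 (SE; 95% interval -0.39 to 0.20). *VPS28*, which connects ESCRT-I to ESCRT-II, was at 73.9, 69.4 and 69.4 CPM and then at 65.0, 59.4 and 51.4 CPM. All 3 paxillin siRNA libraries lay below the non-specific ones, here with replicate 3 as the lowest of its group rather than the highest. Its log2 fold change was -0.28 ± 0.13 (SE; 95% interval -0.57 to 0.02).

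Downstream of VPS25, the groups overlapped in CPM for each ESCRT-III and VPS4 member. *CHMP6*, the ESCRT-III subunit that VPS25 binds and that starts the filament, was at 14.9, 12.9 and 12.3 CPM with non-specific and 10.2, 13.4 and 13.3 CPM with paxillin siRNA. Only replicate 1 was lower there, and the log2 fold change of -0.12 ± 0.17 (SE) had a 95% interval of -0.51 to 0.27. *CHMP4B*, the main filament-forming subunit, was at 127, 151 and 118 CPM and at 138, 139 and 123 CPM, a log2 fold change of 0.01 ± 0.14. *VPS4A* and *VPS4B* encode the ATPases that disassemble the filament. *VPS4A* was at 58.2, 68.6 and 65.8 CPM and at 65.3, 59.7 and 67.3 CPM (95% interval of the log2 fold change -0.28 to 0.28). *VPS4B* was at 60.6, 60.9 and 57.8 CPM and at 51.2, 53.8 and 58.9 CPM (95% interval -0.39 to 0.13). *VPS4A* and *VPS4B* are close paralogs, so reads they share may have been split between them by the authors' counting.

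Considered as a set, the 9 members other than *VPS25* had log2 fold changes between -0.41 and 0.09 with a median of -0.12, and all 9 were under 0.5 in size, as were 76.6% of all genes tested. The median of all genes tested was 0. The groups were apart in CPM in 3 of the 10 members, *VPS25*, *SNF8* and *VPS28*, all lower, beside 28.3% of all genes apart in either direction and 14.7% apart and lower. The medians of the 10 members in the pairs of replicates 1, 2 and 3 were -0.21, -0.21 and 0.03, so the third pair was nearest to 0.

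Per length, *VPS25* changed its place among the members. In the non-specific libraries *CHMP4B*, *SNF8* and *VPS28* were highest, at 29.2 ± 3.76, 26.4 ± 2.43 and 26.4 ± 0.321 FPKM (SD, n = 3), and their ranges overlapped. *HGS* (13.7 ± 3.31), *TSG101* (9.73 ± 0.815), *VPS25* (9.61 ± 0.466) and *VPS4A* (9.58 ± 0.919) followed, and each overlapped the next in FPKM. *VPS4B* at 5.95 ± 0.162, *CHMP6* at 2.95 ± 0.253 and *VPS36* at 1.44 ± 0.0564 FPKM were each below the one before in every library. With paxillin siRNA *VPS25* was no longer level with *TSG101* and *VPS4A*, which stood at 8.79 ± 0.822 and 9.08 ± 0.858 FPKM. At 2.85 ± 1.02 FPKM it lay below *VPS4B* in every library and overlapped *CHMP6* at 2.53 ± 0.380 FPKM. *VPS36* was lowest in both groups, at 1.47 ± 0.117 FPKM with paxillin siRNA.

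The rest of the ESCRT genes had smaller differences than *VPS25*, which was chosen for its large fall. Among 24 further subunits and partners of ESCRT-0 to ESCRT-III and VPS4, edgeR called 0 over all genes, where 1.18% of all genes were called. An unadjusted p under 0.05 was found for 1 of the 24 against 22.5% of all genes, DESeq2 called 1 against 10.7% of the 14951 genes it gave an adjusted p, and limma-voom called 0 against 0.926%. Their median log2 fold change was -0.06, and they ranged from -0.37 to 0.52. *CHMP4C*, the ESCRT-III subunit of the abscission checkpoint at the end of cell division, was the gene called by DESeq2. It was at 28.0, 26.5 and 34.7 CPM with non-specific siRNA and at 43.2, 42.8 and 42.2 CPM with paxillin siRNA. Every paxillin siRNA library was above every control, and the log2 fold change was 0.52 ± 0.14 (SE; adjusted p = 0.0916 by edgeR, 0.0115 with the replicate block, 0.0246 by DESeq2). With the block it was the only gene of the 24 called, against 22.4% of all genes. *VPS37D*, an ESCRT-I subunit, was at 12.1, 8.91 and 10.6 CPM and at 7.52, 8.15 and 8.88 CPM (log2 fold change -0.37 ± 0.18, edgeR adjusted p = 0.264). *FAM125B*, now named MVB12B and also of ESCRT-I, had a log2 fold change of 0.33 ± 0.17 (adjusted p = 0.292). *CHMP3* had -0.26 ± 0.18 (adjusted p = 0.422) and lies over 3 other genes, so its reads may not be its own. It was called without paxillin siRNA replicate 3 (log2 fold change -0.47, edgeR adjusted p = 0.0491), a fit that called 1271 of 16139 genes lower. *PDCD6IP*, which encodes ALIX, the adaptor that reaches ESCRT-III by a route of its own, was the most abundant of the 24 by CPM, at 249, 245 and 241 and at 243, 231 and 204 CPM (log2 fold change -0.12 ± 0.13, adjusted p = 0.626). By FPKM its difference had the opposite sign, at 0.01.

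**Figure D3:**
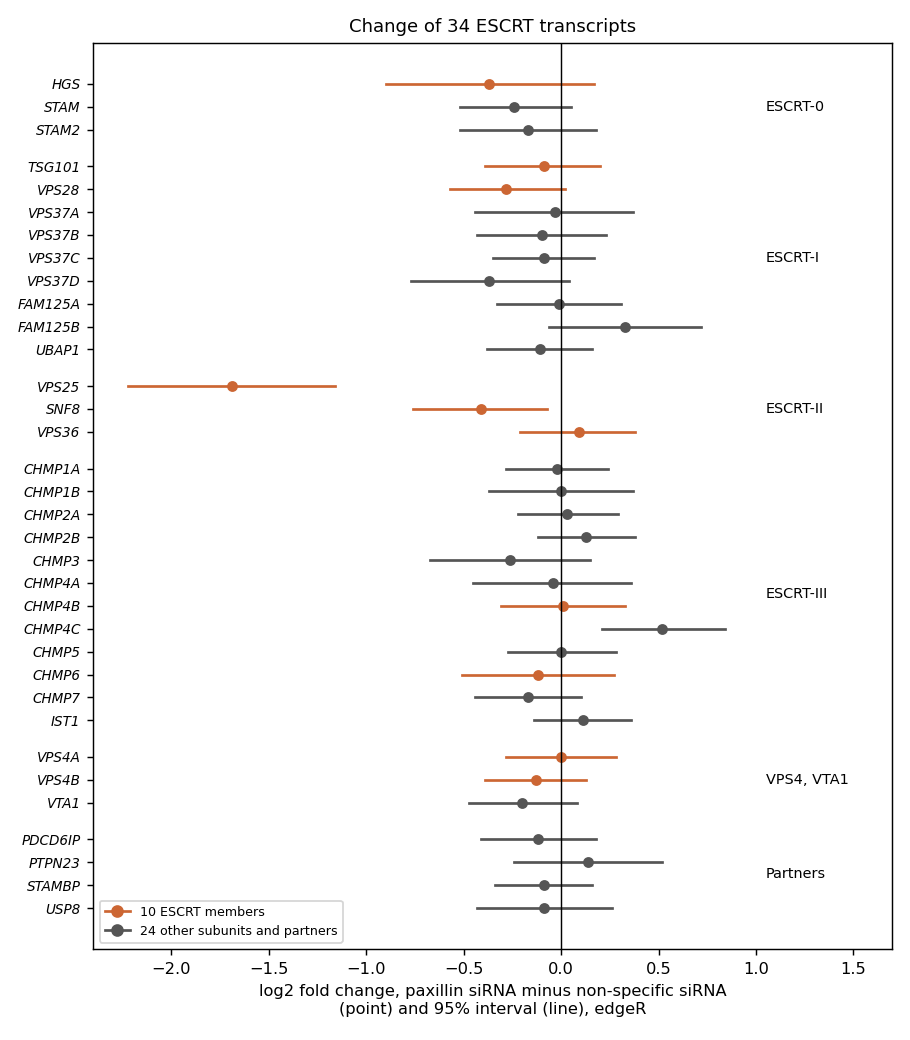
Log2 fold change (points) and 95% interval (lines) of the 34 ESCRT transcripts by complex, from edgeR without the replicate block. *VPS25* lies at -1.69 with an interval that ends at -1.16, and the points of the other 33 genes lie between -0.41 and 0.52.

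Genes that feed cargo or membranes to ESCRT were read from 4 further lists, whose counts stand against the same shares of all genes as above (1.18% by edgeR, 22.4% with the block, 22.5% at an unadjusted p under 0.05, 10.7% by DESeq2, 0.926% by limma-voom). Of 18 recruiters and ubiquitin ligases, edgeR called 0 over all genes (6 at an unadjusted p under 0.05, 1 by DESeq2, 0 by limma-voom), with a median log2 fold change of 0.00. *CEP55*, which brings ESCRT to the midbody of dividing cells, was at 32.1, 60.6 and 31.5 CPM with non-specific siRNA and at 13.2, 17.1 and 29.6 CPM with paxillin siRNA. The groups were apart, narrowly in replicate 3 (log2 fold change -1.05 ± 0.36, edgeR adjusted p = 0.143, 0.0101 with the replicate block). *CBL*, a ubiquitin ligase of activated growth factor receptors, was at 92.4, 90.9 and 98.7 CPM and at 44.5, 70.4 and 80.4 CPM, and its groups did not overlap either (-0.53 ± 0.21, edgeR adjusted p = 0.190, 0.0185 with the block). *ARRDC3*, an arrestin-like adaptor of NEDD4-family ligases, was at 68.0, 92.8 and 40.1 CPM and at 111, 171 and 78.3 CPM, higher in each pair (0.84 ± 0.35, edgeR adjusted p = 0.213, 0.000693 with the block). The ubiquitin-binding adaptor *TOM1* had a log2 fold change of 0.46 ± 0.15 (adjusted p = 0.140, 0.0386 with the block). *TAX1BP1*, the most abundant of the list, had -0.07 ± 0.16 (adjusted p = 0.836), which turned to 0.08 without non-specific siRNA replicate 3.

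The tethers and retromer genes held no call without the block. Of 10 HOPS and CORVET genes, whose complexes dock endosomes to each other and to lysosomes, edgeR called 0 over all genes (1 at an unadjusted p under 0.05, 0 by DESeq2 and by limma-voom), with a median of 0.14 and 8 of 10 above 0, as were 50.2% of all genes. Other lists leaned the other way, with 7 of the 24 further ESCRT genes and 4 of 17 retromer and endosome genes above 0. Of the recruiters and ligases 9 of 18 were above 0, and of the exosome and multivesicular body genes 5 of 12. *VPS33A* was at 36.7, 44.2 and 37.6 CPM and at 49.2, 56.1 and 47.7 CPM, with no overlap (log2 fold change 0.37 ± 0.13, edgeR adjusted p = 0.159, 0.0358 with the replicate block). *VPS41* and the abundant *VPS39* had 0.25 ± 0.11 and 0.13 ± 0.11 (adjusted p = 0.229 and 0.521), and *TGFBRAP1* and *VPS8* -0.25 ± 0.19 and -0.11 ± 0.14 (0.449 and 0.678). Of 17 retromer and endosome genes, edgeR called 0 without the block and 0 with it, against 22.4% of all genes with it (1 at an unadjusted p under 0.05, 0 by DESeq2 and by limma-voom), with a median of -0.05. *VPS29*, a retromer subunit, was at 55.5, 67.8 and 56.9 CPM and at 45.9, 42.5 and 52.1 CPM (-0.36 ± 0.14, edgeR adjusted p = 0.179). *PIK3C3*, the lipid kinase that makes the phosphoinositide read by HRS, had -0.36 ± 0.21 (adjusted p = 0.350). *RAB11A* and *VPS26B*, which had the largest positive values, had 0.11 ± 0.14 and 0.10 ± 0.13 (0.672 and 0.683), and the late endosome GTPase *RAB7A* had -0.25 ± 0.12 (0.271).

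Without the block, edgeR made calls in 1 of the 4 further lists, that of exosome and multivesicular body genes. Of its 12 genes, 2 rose and 0 fell over all genes tested (edgeR), where 0.882% of all genes rose, and the list's median was -0.13. Both are known as interferon-induced genes rather than for a part in sorting. The lists were chosen with earlier results of these data known, so this count is a description and not a result about the list. The p-values of both genes are printed under the same limit. *BST2*, the tetherin that holds budding viruses to the cell and is itself sorted by ESCRT, rose from 4.02, 2.18 and 5.29 CPM to 38.9, 60.7 and 37.4 CPM (log2 fold change 3.57 ± 0.34, edgeR adjusted p = 0.0173). *LGALS3BP*, a secreted glycoprotein found on exosomes, rose from 189, 207 and 380 CPM to 1062, 1219 and 822 CPM (log2 fold change 2.00 ± 0.30, edgeR adjusted p = 0.0373). Neither call held without non-specific replicate 1, non-specific replicate 2 or paxillin siRNA replicate 1, and that of *LGALS3BP* was also lost without paxillin siRNA replicate 2 and by limma on log2(FPKM + 1). *RAB27A*, a GTPase that docks multivesicular bodies at the plasma membrane, was at 8.68, 12.4 and 10.8 CPM and at 5.72, 4.26 and 7.91 CPM (-0.83 ± 0.26, edgeR adjusted p = 0.121, 0.0151 with the replicate block). The lysosomal membrane gene *LAMP1* had -0.65 ± 0.23 (adjusted p = 0.161, 0.0108 with the block), and *TFRC*, the transferrin receptor, -0.19 ± 0.20 (0.621). DESeq2 called *CEP55* and *RAB27A* lower (adjusted p = 0.0322 and 0.0345). Without paxillin siRNA replicate 3 edgeR called *CEP55*, *RAB27A*, *LAMP1* and *TOM1* as well (adjusted p = 0.0252, 0.0244, 0.0128 and 0.0395). That fit called far more genes of every kind, 1169 higher and 1271 lower of 16139 tested, so nothing is read from these calls.

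None of the genes beside *VPS25* on chromosome 17 passed the test. *WNK4*, a kinase gene that begins 1032 bases past *VPS25* in the table, was at 60.0, 50.0 and 48.7 CPM with non-specific siRNA and at 62.3, 51.3 and 46.3 CPM with paxillin siRNA (log2 fold change 0.01 ± 0.15, edgeR adjusted p = 0.976). *CCDC56*, 18035 bases away, had 0.19 ± 0.15 (0.484). *BECN1*, the autophagy gene, and *CNTD1*, which share 1 locus 19237 bases away, had 0.08 ± 0.12 (0.721) and 0.46 ± 0.25 (0.306), and their reads may not be separable. On the other side *LOC100190938* and *EZH1*, 10394 and 28383 bases away, had -0.10 ± 0.29 (0.870) and 0.48 ± 0.31 (0.402). *RAMP2*, at the locus of the former, had at most 6 reads in a library and was not tested.

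**Figure D4:**
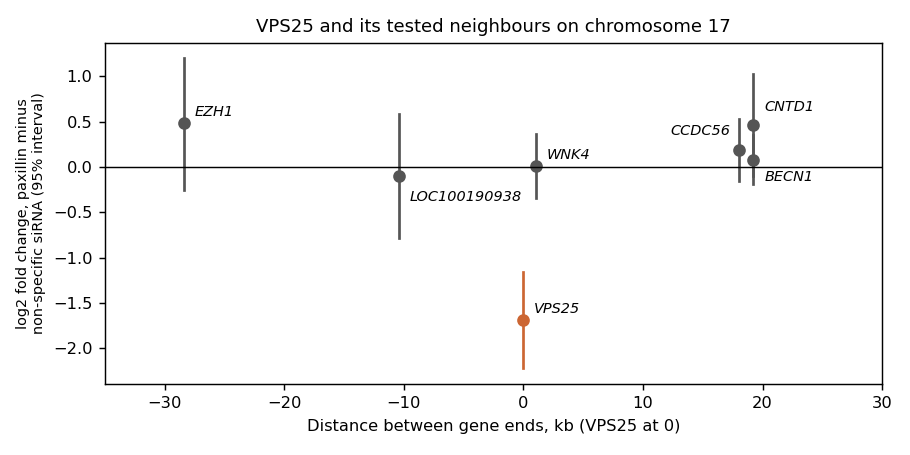
Log2 fold change (points) and 95% interval (lines) of *VPS25* and its nearest tested genes, placed by the distance in kb between the ends of the genes. *VPS25* lies at -1.69 and its 6 neighbours between -0.10 and 0.48.

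Across the 6 libraries, the genes whose log2 CPM followed *VPS25* most closely among 12499 compared were *SLC25A6* (Pearson's r = 0.998), *ADH1A* (0.9973), *PAK4* (0.9972), *HP1BP3* (0.997) and *ADH1B* (0.997). Such a correlation over 6 libraries mostly follows the difference between the groups and is given as a description. The likeness is in shape and not in size. *SLC25A6*, a mitochondrial ADP/ATP carrier, was at 577, 593 and 590 CPM with non-specific and 321, 278 and 403 CPM with paxillin siRNA, and *PAK4*, a kinase of the cytoskeleton, at 37.2, 38.7 and 37.6 and at 25.1, 23.8 and 29.1 CPM. Each had its least change in replicate 3 and its greatest in replicate 2, the order seen in *VPS25*. They were picked for this likeness, so the shared order adds nothing to the correlation. *ADH1A* and *ADH1B* are near-identical genes whose reads may be split between them. Among the members, the correlation with *VPS25* was 0.93 for *SNF8*, 0.82 for *VPS4B*, 0.65 for *VPS28*, 0.55 for *TSG101*, 0.38 for *CHMP6*, 0.32 for *HGS*, 0.18 for *VPS4A*, -0.19 for *CHMP4B* and -0.45 for *VPS36*, and that of *PXN* was 0.98.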

How the data were processed

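Counts in the first deposited table are estimated counts of fragments per gene, 1 column per library, and the second table holds FPKM, both per the file headers. The hg19 build, FastQC 0.10.1 and Cufflinks 2.0.2 are listed in the submitters' processing notes. Aligner, annotation and strand setting are not given in these sources. Low values were whole multiples of 1 factor per library (0.8419, 0.9263 and 1.3685 in non-specific replicates 1 to 3, 0.8245, 0.8519 and 1.2596 in paxillin siRNA replicates), within 0.05 for 91.2% to 91.7% of values above 0, and dividing by it gave reads. Table starts were raised by 1 as 0-based positions.

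Estimated counts were rounded and tested with edgeR 4.0.16 (R 4.3.3; TMM, filterByExpr, quasi-likelihood, two-sided, group only), with Benjamini-Hochberg adjustment over 15876 genes. The steps were tested on simulated data without pairing. In these, edgeR recovered 64% of 2-fold and 100% of 4-fold changes, and 6.29% of its calls were false. DESeq2 recovered 85% and 100%, and 20.26% of its calls were false, so genes called by it alone were taken as less certain. No simulated library was set apart from its group, so these shares may differ in the real libraries. A gene not called by edgeR may still differ. CPM are TMM-scaled. An SE is the log2 fold change over the square root of F, and intervals are 95%. limma 3.58.1 and DESeq2 1.42.0 served as alternatives. Same-numbered libraries deviated together (r = 0.34, 0.43 and 0.56 across genes, against -0.48 to 0.11 otherwise), so the replicate number was taken to pair them. Deviations were taken from each group's mean, so high values for same-numbered libraries force lower ones for the rest. The shared numbers come from the labels, which do not say what they stand for and give no block. The fit by group alone therefore stayed the main one, and its calls leave the pairing out. It called 1.18% of genes, against 22.4% with the block.

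The members and lists were chosen with earlier results of these data known. Named are all members, in each list the called genes, the 2 largest rises and falls and the most abundant gene, the 5 genes most like *VPS25* (average log2 CPM at least 2) and the 3 nearest on each side, ties included. Of 91 list genes, 3 were matched by older symbols. Some cell line markers are not reported here.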

Additional observations from a re-analysis of the deposited data

How the results depend on the processing

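The log2 fold change of *VPS25*, which was chosen for its fall in this comparison, ranged from -1.98 to -1.49 over the 16 alternatives, a description and not support. Left out singly, the 6 libraries gave 0 to 1169 genes higher and 0 to 1271 lower by edgeR, against 140 and 48 (0 and 0 without non-specific replicate 1 or 2), 0 to 2 ESCRT members lower, 0 to 1 of the other ESCRT genes lower, 0 to 3 genes of the 4 further lists higher and 0 to 3 lower. The median of the members ranged from -0.19 to -0.08, that of the other ESCRT genes from -0.09 to -0.03, the *VPS25* to *VPS36* contrast from 2.98 to 4.12 and that to *SNF8* from 2.29 to 2.72. The replicate block gave 1858 higher and 1703 lower, with 3 members lower, 1 other ESCRT gene higher, and 6 higher and 4 lower in the further lists. It changed no call of a list gene other than those given beside their values and that of *CD9*, a tetraspanin gene of exosomes (log2 fold change 0.43, adjusted p = 0.0270 by edgeR, against 0.254 without the block). DESeq2 gave 783 higher and 812 lower, with 1 other ESCRT gene higher and 2 of the further lists lower. With no filter on low counts, 215 genes were higher and 88 lower. Limma on log2(FPKM + 1) gave 23 and 10, with 1 gene of the further lists higher. With 0.1 added it gave 46 and 17, and a median of -0.12 for the other ESCRT genes. The median of all genes in that fit was -0.1, against 0 in the main fit. Limma on log2(FPKM + 1) with no filter called 0 genes higher and 0 lower, hence 0 members and 0 of the further lists. *PDCD6IP* was at 0.01, 0.02 and 0.01 in those 3 FPKM fits against -0.12, and *TAX1BP1* at -0.18 to 0.08 with 1 library left out, the latter without non-specific replicate 3, against -0.07. The cause of these changes was not tested. Each member had 205 reads or more in every library, and whether more depth would change a value was not tested.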
